A study of Rattus norvegicus with 15 samples.

Results

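The genes of the proteasome were described in testes of irradiated and control rats. Members were the probe sets, groups of short oligonucleotides on the array that report 1 transcript, annotated with a single gene symbol that starts with Psm, a letter from a to g, and a digit. The name rule found 46 of the 14217 genes with such probe sets, on 60 probe sets. Of these genes, 44 encode proteasome subunits, activators, the inhibitor or assembly chaperones. The other 2 share only the name: Psmc3ip, a meiotic recombination factor, and Psme3ip1, a protein that binds an activator. All 46 genes passed the filter on low values, through 56 of the 60 probe sets. Proteasome genes that share their probe sets with other genes in the annotation (6 probe sets, among them those of Psmb6 and Psme3) were not analysed here. Psma8, the testis counterpart of the core subunit Psma7, was not analysed here either.

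Expression was measured in whole testes of LBNF1 rats, a hybrid laboratory strain, 25 to 27 weeks old, on Affymetrix arrays that hybridise biotin-labelled cRNA. The 5 irradiated samples came from rats given 6 Gy to the lower abdomen, and the 10 control samples came from testes described as taken before irradiation. The labels call the samples biological replicates but do not tie each to a rat of its own. A p-value here therefore reflects only how far these samples spread, which may be technical in part. How long after irradiation the testes were taken is not given in the sources. All values are log2 signals with an unknown zero point, and a change is irradiated minus control, so that a change of 1 is a 2-fold difference.

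The proteasome degrades proteins tagged with ubiquitin. Its barrel-shaped core particle is built from outer rings of alpha subunits, which gate the entrance, and inner rings of beta subunits, some of which cut peptide bonds. Regulatory particles or other activators dock on the alpha rings, and ATPases in the regulatory particle unfold substrates and feed them into the core. Interferon-inducible beta subunits can replace the standard catalytic ones to form the immunoproteasome, which makes peptides for MHC class I. In mice, male germ cells carry a proteasome of their own type, in which a testis alpha subunit takes the place of Psma7 and the activator Psme4 is common.

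Of the 44 proteasome genes, 23 rose and 14 fell in irradiated testes and 7 did not pass (limma, adjusted p threshold of 0.05). The share that passed, 84.1%, was near that of all 10841 genes tested, of which 85.5% passed, 47.6% higher and 37.9% lower, and is not a result about these genes. In 18 proteasome genes all 5 irradiated arrays lay above all 10 control arrays and in 11 they lay below. Over all genes 69.5% had groups that did not overlap, 40.5% above and 29% below. The changes ran from -3.53 for the inhibitor Psmf1 to 4.46 for the activator subunit Psme1.

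The classes differed in their medians. The 13 standard core subunits had a median change of 1.06, which is 0.86 above the median of all genes. The 3 immunoproteasome subunits had a median of 2.62, which is 2.42 above it. The 23 regulatory genes, subunits of the regulatory particle with their chaperones and the activators, had a median of 0.16, which differed from that of all genes by -0.04 and turned to -0.16 after quantile normalization, where the median of all genes turned to -0.06. The median change of all genes was 0.20 as deposited, 0.05 with arrays centred on their medians and 0.24 with arrays centred on the spike-ins. With no filter on low values it was 0.08. These medians are descriptions and were not tested against each other.

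**Figure D1:**
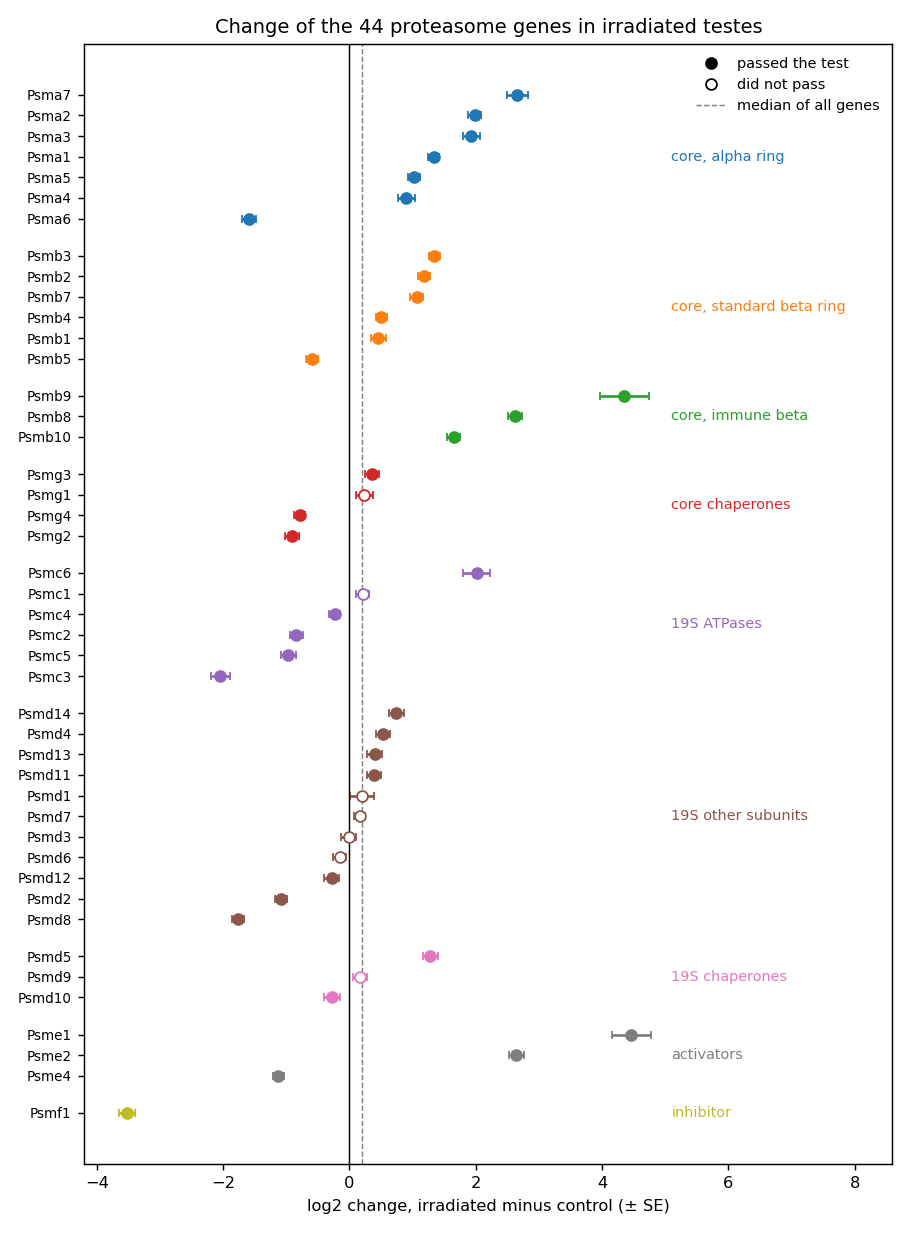
Log2 change (irradiated minus control, horizontal axis, with limma's SE) of the 44 proteasome genes, grouped by role. Filled points passed the test, open points did not, and the dashed line is the median of all genes at 0.20. The standard alpha and beta subunits lie mostly right of 0 with Psma6 and Psmb5 on the left, the immune subunits lie at 1.65 or above, and Psmf1 lies alone at -3.53.

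The irradiated and control testes also differed in the markers of their cells, and in a whole organ fewer cells of a type and less RNA per cell cannot be told apart. The marker counts stand against all genes tested, of which 85.5% passed, 47.6% higher and 37.9% lower. All 8 tested spermatocyte markers and all 16 tested spermatid markers fell. The log2 of the summed spermatid signals lay between 1.24 and 2.40 in irradiated arrays and between 8.90 and 9.47 in control arrays. All 5 irradiated arrays had every spermatocyte marker tested, among them Sycp3 and Hspa2, and 10 spermatid markers, among them Tnp1 and Prm2, below the array median. All 10 tested Sertoli markers and all 12 Leydig markers rose, with summed log2 signals of 6.80 to 7.30 and 6.75 to 7.06 in irradiated arrays, against 4.69 to 5.08 and 3.47 to 3.92 in control arrays. Of 14 macrophage markers 11 rose and 2 fell (4.78 to 4.97 in irradiated and 3.72 to 4.14 in control arrays), with Ptprc, Cd68, Cd163 and C1qb below the median in every control array and Adgre1 below it in every irradiated array. The falls among them were those of Aif1, by 3.25 with no overlap, and Adgre1. Aif1 had the highest control mean of the list, 3.24, and so made up a large part of the control sums. The 4 lymphocyte markers tested split evenly, with sums of 1.10 to 1.26 in irradiated and 0.44 to 1.13 in control arrays. Cd8b and Ms4a1, which fell, lay below the median in every irradiated array. The 10 tested markers of peritubular and vessel cells rose (4.91 to 5.27 in irradiated and 2.90 to 3.26 in control arrays), of which Cnn1, Kdr, Pecam1 and Tagln lay below the median in every control array. A gene below the median in all 10 control arrays could enter the test only through the irradiated arrays, so it had to be higher in them. Likewise, a gene below it in all 5 irradiated arrays could enter only through the control arrays, so the filter favoured a fall. This holds for all 8 spermatocyte markers and for 10 of the spermatid markers. Of 6 spermatogonial markers 2 rose and 2 fell (2.77 to 3.25 in irradiated and 2.57 to 2.85 in control arrays). Among them Kit, which rose, lay below the median in every control array, and Gfra1, which fell, in every irradiated array. The part of these markers in the proteasome changes was not tested.

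Of the 7 genes of the alpha ring 6 rose, and Psma6 fell, with no overlap between the groups in any of the 7. Counts for this and the other classes stand against all genes tested. Of all genes 47.6% were called higher, 37.9% lower, and 69.5% had groups that did not overlap. Within the ring the largest rise was that of Psma7, the subunit that Psma8 replaces in mouse germ cells. Psma7 had log2 signals of 3.04, 2.74, 2.49, 2.77 and 2.68 in irradiated testes, against a lowest value of -0.58, a median of 0.09 and a highest value of 0.58 in control testes. All irradiated arrays lay well above every control array. The change of 2.66 ± 0.16 (SE, adjusted p = 9.33e-11) corresponds to a 6.32-fold difference, and 6.84% of all genes had a larger change.

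Psma6 went the other way. Its log2 signals were 3.55, 3.43, 3.24, 3.38 and 3.15 in irradiated testes and ran from 4.67 through a median of 4.94 to 5.35 in control testes. The lowest control array lay above the highest irradiated array. The change was -1.59 ± 0.11 (SE, adjusted p = 4.32e-10), a 3.01-fold lower signal. The members Psma2 and Psma3 rose by 1.98 and 1.93, Psma1 by 1.33, Psma5 by 1.03 and Psma4 by 0.90. Subunits of a single ring, which the assembled particle holds in equal number, thus had measured changes from -1.59 to 2.66.

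**Figure D2:**
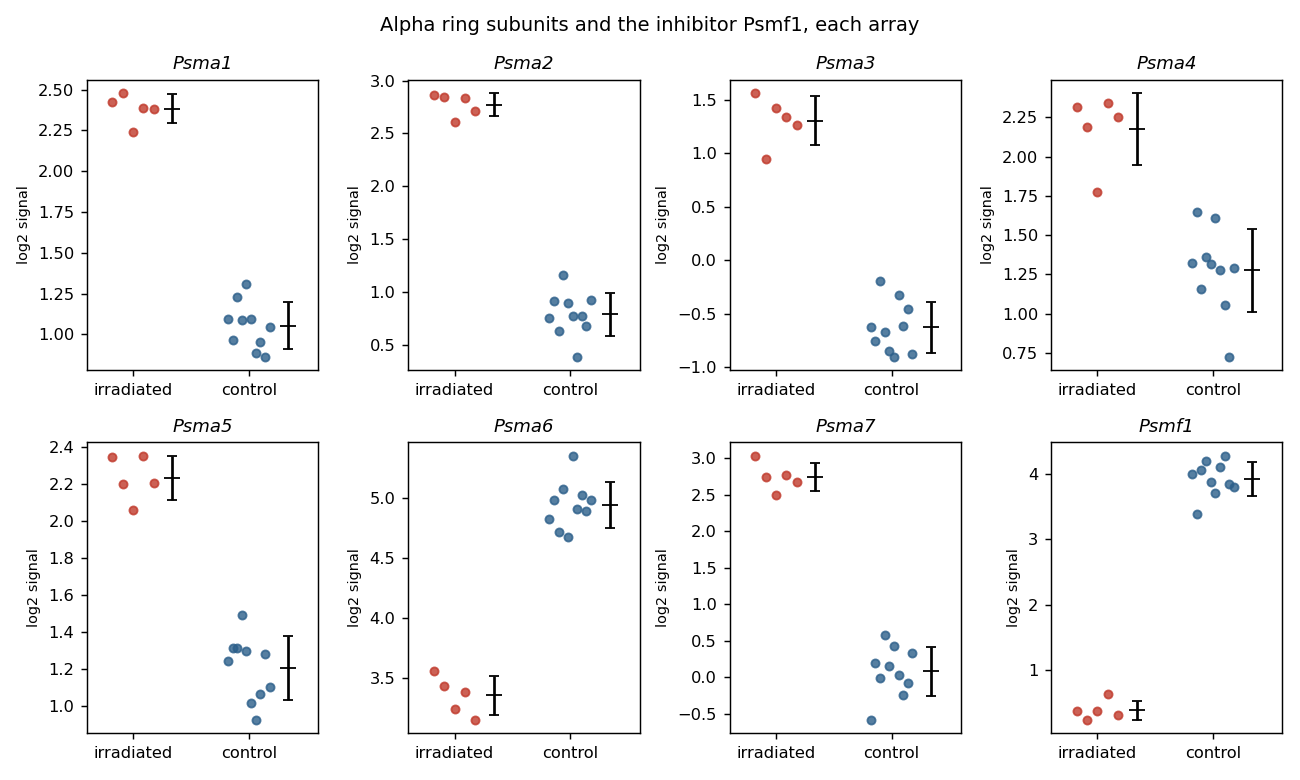
Log2 signal of the 7 alpha ring genes and of the inhibitor Psmf1 in each array, irradiated (5 points) left of control (10 points), with the mean and SD beside each group. Each panel has its own vertical scale. The groups are apart in every panel, with Psma6 and Psmf1 lower and the other 6 genes higher in irradiated testes.

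The 6 standard beta genes measured split in the same way, with 5 higher and 1 lower. Psmb5, which carries the chymotrypsin-like activity of the standard core, fell. Its log2 signals were 2.37, 2.51, 2.13, 2.35 and 2.03 in irradiated testes and ran from 2.67 through 2.86 to 3.23 in control testes. The groups did not overlap, and the change was -0.59 ± 0.10 (SE, adjusted p = 4.21e-05). Psmb7, which carries the trypsin-like activity, rose. It had 3.16, 3.03, 2.70, 2.97 and 2.80 in irradiated testes, against 1.71 to 2.16 with a median of 1.82 in control testes. Every irradiated array was above every control array (1.06 ± 0.10, adjusted p = 2.91e-08).

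Among the beta subunits without catalytic activity, Psmb3 rose by 1.35 ± 0.09 and Psmb2 by 1.18 ± 0.09. Psmb4 and Psmb1 rose less, by 0.51 and 0.46, and the groups of Psmb1 overlapped. With arrays centred on the spike-ins, whose own mean varied between arrays with an SD of 0.479 in irradiated and 0.45 in control arrays, Psmb1, Psmb4 and Psmb5 no longer passed (adjusted p = 0.15, 0.0919 and 0.0837).

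All 3 immunoproteasome subunits rose, and none of them had overlapping groups. Over all genes 40.5% had every irradiated array above every control array. Psmb8, which takes the place of Psmb5, had log2 signals of 2.52, 2.48, 2.10, 2.64 and 2.37 in irradiated testes, against -0.45 to 0.20 with a median of -0.21 in control testes. The irradiated arrays stood far above the control arrays, 6.14-fold in the mean (2.62 ± 0.11, SE, adjusted p = 9.85e-13). Psmb10, which takes the place of Psmb7, had 1.46, 1.54, 1.08, 1.63 and 1.28 in irradiated testes, against -0.49 to -0.07 with a median of -0.25 in control testes. This too was a full separation, of 3.14-fold (1.65 ± 0.11, adjusted p = 2.11e-10).

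Psmb9, which takes the place of Psmb6, had the largest measured rise after Psme1. Its log2 signals were 2.32, 2.42, 2.03, 2.53 and 2.20 in irradiated testes and ran from -3.61 through -1.75 to -0.89 in control testes. In 8 of the 10 control arrays Psmb9 lay below the array median, so its control level is only bounded. The filter asks for 5 arrays, so Psmb9 could not enter the test without irradiated arrays. With values below the array median set to it, the irradiated mean was at least 12.9-fold higher (adjusted p = 1.99e-08 for the measured values). The control arrays spread widely for this gene (SD 0.93), against 0.19 in irradiated arrays.

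Each immune subunit was compared within arrays with the standard subunit it can replace, as transcript changes; replacement in the particle was not measured. The rise of Psmb8 exceeded the change of its standard counterpart Psmb5 by 3.21 log2 units, 9.25-fold, and the within-array difference was higher in all 5 irradiated arrays than in any of the 10 control arrays. The rise of Psmb10 exceeded that of Psmb7 by 0.59, 1.5-fold, again with no overlap. Both had a 2-sided exact permutation p = 0.000333, the smallest that groups of this size allow, also after adjustment over the 2 pairs. After quantile normalization the Psmb10 difference was 0.24 (adjusted p = 0.00699). Psmb9 was not compared with Psmb6, which had no probe set of its own.

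**Figure D3:**
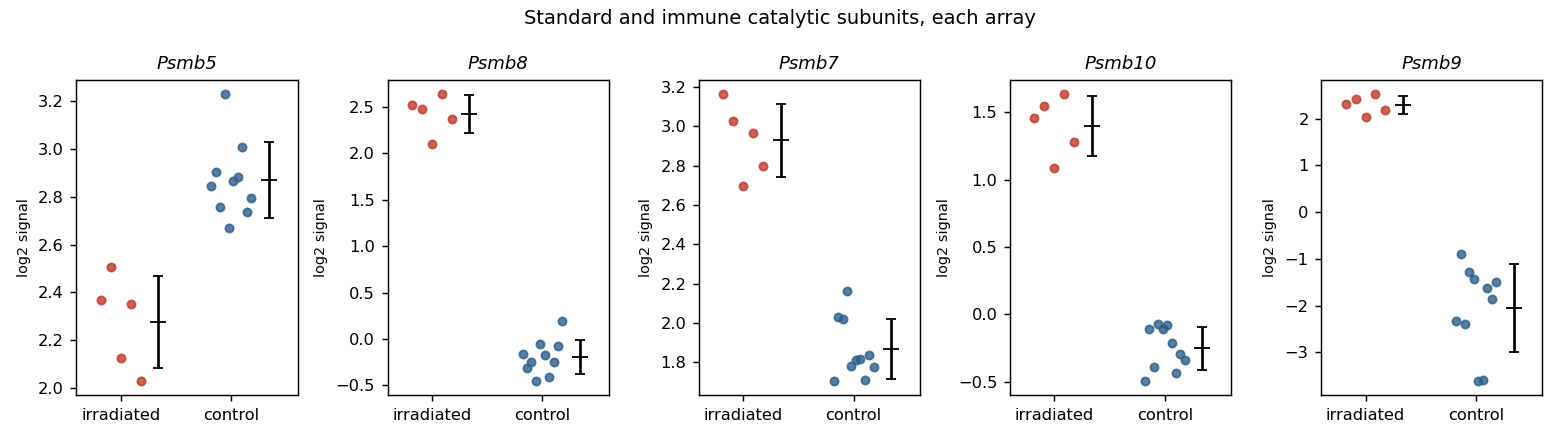
Log2 signal of the standard subunits Psmb5 and Psmb7, each followed by the immune subunit that replaces it (Psmb8 and Psmb10), and of the immune subunit Psmb9, in each array. Irradiated arrays (5 points) are left of control arrays (10 points), with mean and SD beside them and a scale of its own in each panel. Psmb5 is the gene with lower irradiated values, from 2.03 to 2.51 against 2.67 to 3.23 in control arrays.

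Promoter sequences of 40 of the 44 genes were read from RefSeq (build GRCr8, 250 bases before the start and 50 after) to see what the immune subunits share. They are shown because Psmb8, Psmb10 and the activator subunit Psme2 rose together and because GAAA repeated after any 2 bases, searched on both strands, is part of the element through which interferon acts. Such a repeat stood in 7 of the 40 promoters, against 3.77% of the 27457 promoters in the table. It was found in Psmb8, Psmb10, Psme2, Psma4, Psmb3, Psmd7 and Psmg4. Of these 7 genes, Psmg4 fell (-0.79) and Psmd7 did not pass (0.16). The repeat was not found in the windows of Psme1 and Psmb9, the members with the largest measured rises. Psmb9 neighbours Tap1, which lies between Psmb8 and Psmb9 and encodes part of a transporter of peptides for MHC class I. The repeat stands in the window of Tap1. This Tap1 repeat also lies upstream of Psmb9, but farther than the 250 bases searched there. For Psmb9 the absence of the repeat therefore covers its window alone. A match describes letters and was not tested as a site. Capitals mark the repeat in the stretches of 80 bases below, each written 5′ to 3′ on its gene's strand. The stretch of Psmb5 is shown for comparison.
Psmb8, chr20:4657012-4657091, minus strand: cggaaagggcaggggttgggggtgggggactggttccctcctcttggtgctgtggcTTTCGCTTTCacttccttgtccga
Psmb10, chr19:50743293-50743372, minus strand: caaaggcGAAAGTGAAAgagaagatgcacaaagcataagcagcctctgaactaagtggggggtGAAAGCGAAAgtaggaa
Psme2, chr15:33052760-33052839, minus strand: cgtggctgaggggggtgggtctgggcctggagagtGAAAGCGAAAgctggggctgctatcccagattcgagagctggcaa
Tap1, chr20:4668620-4668699, minus strand: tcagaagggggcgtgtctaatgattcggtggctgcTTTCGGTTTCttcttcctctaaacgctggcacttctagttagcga
Psmb9, chr20:4668920-4668999, plus strand: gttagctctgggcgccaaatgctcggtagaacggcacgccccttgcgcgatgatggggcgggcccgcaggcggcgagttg
Psmb5, chr15:32047380-32047459, minus strand: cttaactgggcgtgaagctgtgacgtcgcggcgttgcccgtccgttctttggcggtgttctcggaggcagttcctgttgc

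Psmb10 holds the repeat at 2 places, with first bases 73 and 17 bases upstream of the start, and Psme2 at 1 place, 53 bases upstream. In Psmb8 it begins 4 bases upstream and runs across the start. The core of the antioxidant response element, TGACNNNGC in either strand, through which Nfe2l1 and Nfe2l2 act on proteasome genes, stood in 7 of the 40 promoters (Psma3, Psmb2, Psmb5, Psmd1, Psmd3, Psmd9 and Psme4) and in 12.2% of all promoters. The CCAAT box, in either strand, stood in 9 of 12 standard core promoters, in 7 of 20 regulatory ones and in 37.7% of all promoters. Matches of different motifs overlapped in 1 of the 40 promoters. These shares are descriptions and were not tested.

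The activators went in both directions. Psme1 and Psme2 encode the subunits of an interferon-inducible cap that opens the core without ATP and works with the immunoproteasome, and the genes lie close together with only Emc9 between them. Psme1 had log2 signals of 2.80, 2.97, 2.66, 2.91 and 2.61 in irradiated testes, against -3.47 to -0.93 with a median of -1.58 in control testes. In 6 of 10 control arrays it lay below the array median, so it too could not enter the test without irradiated arrays. Its irradiated mean was at least 17.6-fold higher (adjusted p = 5.60e-10 for the measured change of 4.46 ± 0.31, SE). A dimmer probe set of Psme1, with group means of -1.52 in irradiated and -1.40 in control testes, did not pass (-0.12, adjusted p = 0.85). Psme2 had 1.98, 1.98, 1.79, 2.10 and 1.76 in irradiated testes and ran from -1.24 through -0.67 to -0.43 in control testes, a full separation of 6.24-fold (2.64 ± 0.12, adjusted p = 2.21e-12).

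Psme4 encodes a large single-chain activator that, in mice, is abundant in testis and takes part in removing acetylated histones from spermatids. By its brightest probe set it had 1.88, 1.63, 1.63, 1.64 and 1.69 in irradiated testes, against 2.57 to 3.09 with a median of 2.80 in control testes. All irradiated arrays lay below the control arrays (-1.13 ± 0.09, adjusted p = 2.80e-09). Another probe set of Psme4 fell by 0.98, whereas the third rose by 1.5 ± 0.12 (adjusted p = 2.66e-09), with 0.70 to 1.10 in irradiated arrays and a mean of -0.55 ± 0.22 in control arrays (SD, n = 10). The direction of Psme4 therefore depends on the probe set, and Psme4 was the single gene among 7 with several tested probe sets whose calls were opposite.

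**Figure D4:**
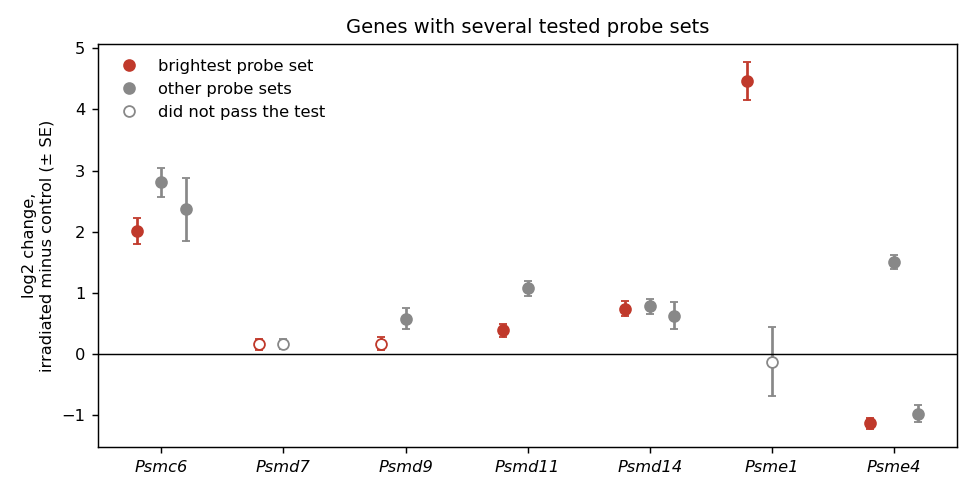
Log2 change (irradiated minus control, with SE) of each tested probe set of the 7 genes that have more than 1. Red points are the brightest probe set, which stands for the gene, grey points the others, and open points did not pass. Values are plotted as measured, also for the Psmc6 probe set at 2.37, which is below the array median in every control array. The probe sets of Psmd14 lie close together, those of Psme4 lie on both sides of 0, and Psme1 has a second probe set near 0.

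The inhibitor fell furthest. Psmf1, a proline-rich protein that inhibits the isolated core in vitro, had log2 signals of 0.38, 0.25, 0.38, 0.63 and 0.32 in irradiated testes and ran from 3.39 through 3.93 to 4.27 in control testes. The gap between the groups was wider than the whole spread of either group. The signal was 11.6-fold lower (-3.53 ± 0.13, SE, adjusted p = 1.26e-13), and 5.65% of all genes had a more negative change.

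In the regulatory particle, the ATPases and the other subunits each went in both directions. Of the 6 ATPase genes, whose products form the ring that unfolds substrates, 1 rose, 4 fell and Psmc1 did not pass (0.21, adjusted p = 0.0701). Psmc3 fell most. It had 1.45, 1.34, 0.93, 1.27 and 1.28 in irradiated testes, against 2.58 to 3.73 with a median of 3.36 in control testes. The groups were apart, and the difference was 4.12-fold (-2.04 ± 0.15, adjusted p = 1.28e-09). Psmc5 and Psmc2 fell by 0.97 and 0.84, again with no overlap.

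Psmc6, in the same ATPase ring, rose. It had 1.53, 1.26, 1.20, 1.58 and 1.86 in irradiated testes and ran from -1.34 through -0.55 to 0.13 in control testes. Every irradiated array was higher, by 4.04-fold in the mean (2.02 ± 0.21, SE, adjusted p = 1.74e-07), and another probe set of Psmc6 rose by 2.81, or by 2.60 with values below the array median set to it. The third probe set of Psmc6 lay below the array median in all 10 control arrays, so it could enter the test only through the irradiated arrays, and it was at least 1.31-fold higher. Psmc4 passed narrowly and its groups overlapped (-0.23, adjusted p = 0.026). Without irradiated replicate 3 or 5 it did not pass (adjusted p = 0.0663 and 0.0659), nor with arrays centred on the spike-ins (adjusted p = 0.566) or with control replicates 1 to 5 only (adjusted p = 0.0999). Psmc1 passed without irradiated replicate 3 or control replicate 4 (adjusted p = 0.0489 and 0.0385).

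Of the 11 other subunits of the regulatory particle, 4 rose, 3 fell and 4 did not pass. Psmd8, a subunit of the lid, had 1.6, 1.66, 1.23, 1.59 and 1.33 in irradiated testes, against 2.96 to 3.46 with a median of 3.26 in control testes. It was lower in every irradiated array, by 3.4-fold (-1.76 ± 0.10, SE, adjusted p = 4.72e-11). Psmd2, a scaffold on which ubiquitin shuttles dock, fell by 1.09 ± 0.10 with no overlap. The other scaffold, Psmd1, did not pass (0.20, adjusted p = 0.322).

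Psmd14, the deubiquitinase that cuts ubiquitin off substrates, rose by 0.74 ± 0.12, and its other probe sets rose by 0.78 and 0.63. Its partner in the lid, Psmd7, did not pass (0.16, adjusted p = 0.101). Psmd4, a ubiquitin receptor, rose by 0.53, and Psmd13 and Psmd11 rose by 0.40 and 0.39, with overlapping groups in all 3. Psmd11 rose by 1.08 in another probe set. Psmd3 and Psmd6 did not pass (-0.011 and -0.16), and Psmd6 did once arrays were quantile normalized or centred on their medians (-0.25 and -0.31, adjusted p = 0.0115 and 0.0126), as did Psmd3 under quantile normalization (-0.37, adjusted p = 0.00469). Psmd11, Psmd13 and Psmd4 did not pass with arrays centred on the spike-ins (adjusted p = 0.193, 0.187 and 0.0766). With arrays centred on their medians Psmd11 and Psmd13 did not pass either (adjusted p = 0.0567 and 0.0703), nor did Psmd13 after quantile normalization (0.0501, adjusted p = 0.663). Psmd12 passed narrowly (-0.28, adjusted p = 0.0425) and lost the call without irradiated replicate 2, 3, 4 or 5 or control replicate 1, 3, 4, 5 or 7 (adjusted p from 0.051 to 0.111). It also lost it with arrays centred on the spike-ins (adjusted p = 0.475), with no filter on low values (adjusted p = 0.0636) and with control replicates 6 to 10 only (-0.12, adjusted p = 0.279).

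The chaperones that assemble the base of the regulatory particle differed from each other. Psmd5 rose by 1.28 ± 0.12, with 0.82 to 0.99 in irradiated testes against -0.71 to -0.09 in control testes. Psmd9 did not pass (0.17, adjusted p = 0.156). Its other probe set lay below the array median in 7 of 10 control arrays and 1 irradiated array, so it needed irradiated arrays to enter the test. With values below the array median set to it, this probe set was 1.25-fold higher. That fold is not a lower bound, because an irradiated value was raised as well. Psmd10, also known as gankyrin, passed narrowly (-0.27, adjusted p = 0.0477). It lost the call without irradiated replicate 2, 3 or 4 or control replicate 1, 2, 4, 6, 7, 8 or 9 (adjusted p from 0.0507 to 0.166). The call of Psmd10 also ended with arrays centred on the spike-ins (adjusted p = 0.504), with no filter on low values (adjusted p = 0.0705) and with each subset of the controls (adjusted p from 0.101 to 0.133).

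**Figure D5:**
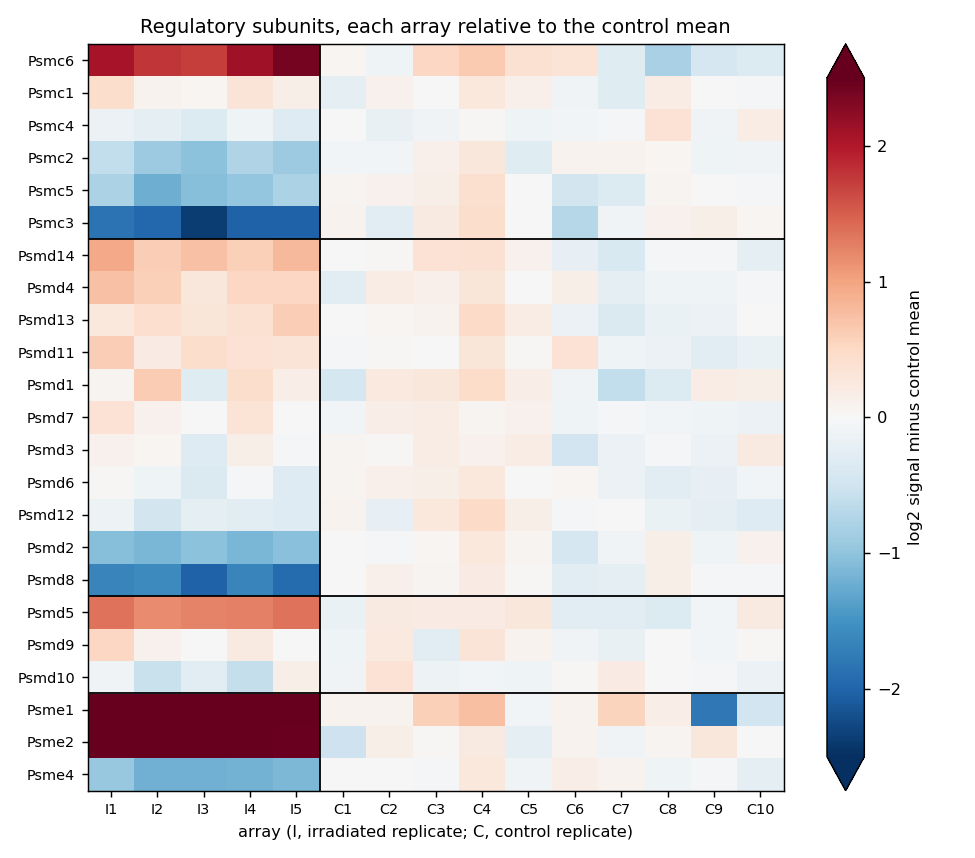
Log2 signal of each of the 23 regulatory genes in each array, relative to the gene's control mean (colour, red higher and blue lower, capped at 2.5 in either direction). Columns are the 5 irradiated arrays and then the 10 control arrays, and black lines separate ATPases, other subunits, chaperones and activators. Psmc6, Psmd5, Psme1 and Psme2 are red and Psmc3, Psmc5, Psmc2, Psmd2, Psmd8 and Psme4 blue in every irradiated array.

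The 4 chaperones that assemble the core work in pairs. Psmg2, which works with Psmg1 on the alpha ring, fell by 0.92 ± 0.11 with no overlap, while Psmg1 did not pass (0.24, adjusted p = 0.116). Psmg4 fell by 0.79 ± 0.08 with no overlap, while its partner Psmg3 rose by 0.35 ± 0.11 with overlapping groups. The direction of Psmg3 was not kept under quantile normalization (-0.0128, adjusted p = 0.91). Its call also ended with arrays centred on their medians (adjusted p = 0.0987), with arrays centred on the spike-ins (adjusted p = 0.235) and with control replicates 1 to 5 only (adjusted p = 0.0512).

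Genes that work with the proteasome also went in both directions. The counts of these lists and of those in the next paragraph stand against all genes tested. Of all genes 85.5% passed, 47.6% higher and 37.9% lower, with a median change of 0.20. Of 15 tested partners that assemble, shuttle to or dock on it, 9 rose and 6 fell, with a median of 0.71, or 0.45 with values below the array median set to it. Among those that rose, Ddi2 was below the array median in every control array. Zfand5, an activator of the particle, and Ubqln2, a ubiquitin shuttle, rose by 2.32 ± 0.10 and 2.28 ± 0.12. Uchl5, a deubiquitinase of the regulatory particle, fell by 2.94 ± 0.12 (adjusted p = 6.55e-13), and Akirin2, which carries proteasomes into the nucleus, fell by 0.84. Of 9 tested genes of ubiquitin activation and of the segregase that pulls ubiquitinated proteins apart, 5 rose and 4 fell (median 0.69). The activating enzyme Uba6 and the ligase Ube4b rose by 2.46 and 1.73, and the segregase cofactors Ufd1 and Faf1 fell by 1.32 and 1.20.

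Among 10 tested regulators of proteasome gene transcription, 7 rose and 3 fell (median 1.26). Stat3 and Irf1, a factor that induces the immune subunits, rose by 3.65 ± 0.22 and 3.24 ± 0.14. Ngly1, which activates the proteasome factor Nfe2l1, fell by 1.36, and Nfe2l1 itself by 0.69 (adjusted p = 0.000353). Of 11 tested genes of MHC class I processing, which uses peptides cut by the proteasome, 10 rose and Calr did not pass (0.16, adjusted p = 0.103). The median of this list was 2.35, and 1.46 with values below the array median set to it. Of the 10 that rose, Tap1 and Tap2 were below the array median in all 10 control arrays. B2m, which forms the invariant part of MHC class I molecules, rose by 3.61 ± 0.18, and Tap1 was at least 2.55-fold higher. Of 15 tested interferon targets 11 rose, 1 fell and 3 did not pass (median 1.38, or 1.24 with values below the array median set to it). Of the 11, Gbp2, Ifi44, Ifit2, Isg15 and Mx1 were below the array median in every control array and entered only through the irradiated arrays. The guanylate binding protein gene Gbp2 and the ubiquitin-like modifier gene Isg15 were at least 10.4-fold and 2.28-fold higher, and Ifit1 fell by 0.78. Markers of macrophages, which rose in 11 of 14 members as given above, moved with these lists. So did all tested markers of Sertoli cells, Leydig cells, and peritubular and vessel cells. The part of any of these cells was not tested.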

How the data were processed

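The authors deposited log2 signals of 31099 probe sets per array. The submitters' processing notes name MAS5. How signals were scaled, filtered and logged was not stated in the sources used here. The base was read from the spike-ins (1.5, 5, 25 and 100 pM), which rose by 0.882 log2 units per doubling in irradiated and 0.869 in control arrays. Values were used as deposited, and 0 sample columns were left unused. Array medians lay between -1.38 and -1.26 in irradiated and between -1.61 and -1.37 in control arrays. Control replicates 6, 7 and 8 had the largest log2 excess of 3′ over 5′ actin signal, which grows as RNA degrades (1.89, 1.37 and 1.44). The other arrays lay between 0.652 and 1.16. Without these 3 arrays 23 proteasome genes rose and 13 fell. The number of arrays limits the precision.

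Genes were named from the platform annotation of the probe sets: 20832 had 1 symbol, 436 several and 9831 none. The 44 proteasome symbols all matched RefSeq (GRCr8) by gene identifier. Probe sets no lower than the array median in 5 or more of the 15 arrays entered the test (18711 of the probe sets, 10841 genes, 57 control probe sets left out). The 2-sided test was limma's (version 3.58.1, R 4.3.3; lmFit with eBayes, no covariate), with Benjamini-Hochberg adjustment over all probe sets tested. The fit was checked on simulated data. All adjusted p-values of genes come from this model. The brightest probe set by mean over all arrays stood for its gene. A fold written "at least" sets values below the array median to that median. Pairs of subunits were compared by exact permutation of the samples.

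The members and lists were chosen with earlier results of these data known. Full values are given for the immune subunits and their counterparts, Psma7, the activators, and the 3 largest rises and falls by rule, and also for Psma6 and Psmc6, which were chosen after their values were seen. List genes are the 2 largest measured changes in each direction. Where a level is only bounded this rank is not settled: with low values set to the array median, Isg15 and Tap1 would not be among the 2 largest rises of their lists. Alternatives covered scaling, the filter, low values, the gene summary, the variance model, a replicate block, subsets of controls and leaving out each array.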

Additional observations from a re-analysis of the deposited data

Results flagged for a closer look

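In 4 of the 88 groups of arrays checked (44 genes, irradiated and control), 1 array stood apart from the rest, by a gap to its neighbour that took up most of the group's range. Chance gives about 1 in 20. Psme4 was highest in irradiated replicate 1 at 1.88, against 1.69 in the next array. Psma4 was lowest in irradiated replicate 3 at 1.78, against 2.19 in the next. In control testes, Psme1 was lowest in replicate 9 at -3.47, below the array median, against -2.15 in the next, and Psmg4 was lowest in replicate 6 at 2.01, against 2.28. All 4 genes passed in every fit that left out a single array.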

How the results depend on the processing

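Across 27 alternatives the immunoproteasome median stayed positive and close to its reported value, and the counts of proteasome genes stayed within 17 to 25 higher and 10 to 16 lower. The median of the regulatory genes turned to -0.16 after quantile normalization and was 0.0066 with arrays centred on their medians. The median of the standard core was 0.91 with arrays centred on their medians and 1.15 with control replicates 6 to 10 only. Leaving out each array gave 8470 to 9257 genes called, 23 to 24 proteasome genes higher and 11 to 14 lower, class medians of 1.00 to 1.12, 2.56 to 2.70 and 0.086 to 0.20 for standard core, immune and regulatory genes, and differences of 3.14 to 3.26 for Psmb8 over Psmb5 and 0.54 to 0.63 for Psmb10 over Psmb7. Quantile normalization turned the changes of Psmd9 (-0.16), Psmd1 (-0.16), Psmd7 (-0.0455), Psmg1 (-0.0974) and Psmg3 (-0.0128). Of these, Psmg3 alone had passed. Psmd3 (-0.011 as reported) turned to 0.025 with arrays centred on the spike-ins, to 0.11 with control replicates 6 to 10 only, and ran from -0.0635 to 0.068 when single arrays were left out. Centring on the spike-ins ended 10 proteasome calls, of sizes up to 0.59. The cause of these changes was not tested.

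The labels give both groups replicate numbers 1 to 5, but same-numbered samples did not deviate together (correlations from -0.0473 to 0.0692), so the numbers were not taken as pairs. With the replicate block, 8950 genes, 21 proteasome genes higher and 13 lower were called, and the pair differences were 3.27 and 0.64 (adjusted p = 0.0625 for both, the smallest that 5 pairs allow).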

Other observations

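The 2 genes that share only the proteasome name behaved differently from each other. Psmc3ip, which in mice is needed for pairing of meiotic chromosomes, had log2 signals of -0.35, -0.44, -0.54, -0.38 and -0.45 in irradiated testes, against 2.79 to 3.02 with a median of 2.90 in control testes. It fell by 3.33 ± 0.07 (SE, adjusted p = 1.86e-16), with no overlap and little spread within either group. Psme3ip1 did not pass (-0.08, adjusted p = 0.437).

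Ubiquitin enzymes known from male germ cells, a list beside the proteasome itself, showed 4 higher and 6 lower of 12 tested genes. The share that passed was 83.3%, near the 85.5% of all genes. Klhl10, a spermatid adaptor of a ubiquitin ligase, was under the array median in all 5 irradiated arrays and was at least 43-fold lower (limma adjusted p = 1.39e-12). It could enter the test only through the control arrays, so the filter favoured a fall. Ube2j1, a conjugating enzyme of the endoplasmic reticulum, fell by 4.10 ± 0.15. Huwe1 and Ubr2, both ubiquitin ligases, rose by 1.36 and 1.21.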
